A study of Mus musculus with 60 samples.

Results

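Ventral midbrain was compared with dorsal midbrain of the mouse embryo at E14.5, in days of embryonic development, by bulk RNA sequencing of dissected tissue. The comparison rests on 6 libraries, 3 per region, out of 60 in a series of 5 brain regions at 4 daily stages. They were taken as the columns of these regions at this stage, and they carry replicate numbers 2, 3 and 4 in both regions. Per the labels, every embryo in both groups carried the TH-GFP transgene, a fluorescent reporter of tyrosine hydroxylase that was used under UV light to guide the dissection, and no treatment is listed. The ventral pieces covered domains M3 to M7 of floor plate and basal plate, so they were cut by position and not sorted for dopaminergic cells. The borders of the dorsal pieces are not described in the labels. Both groups were in the same sequencing run, as read from the sample descriptions. Whether each library stands for its own embryo or litter is not given, so the p-values measure only the spread among these libraries, which may be technical.

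The ventral midbrain makes the dopaminergic neurons of the substantia nigra and ventral tegmental area. Floor plate cells secrete Sonic hedgehog, and the factors Foxa2, Lmx1a, Nr4a2 and Pitx3 lead midline progenitors to the dopaminergic fate, with En1 maintaining the neurons. The dorsal, alar midbrain is patterned by Wnt and BMP signals and by Pax3, Pax7 and Zic factors, and it becomes the tectum, the roof of the midbrain that receives visual and auditory input. In the mouse, ventral midbrain neurons are largely born before those of the tectum.

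Values are RPKM, reads scaled to transcript length in kilobases and to the reads assigned to genes in each library, so levels can be compared between genes. Library values are listed in the order of replicates 2, 3 and 4, and group values are mean ± SD (n = 3). Differences are ventral minus dorsal on the log2(RPKM + 1) scale, ± standard error, from limma fitted over all genes tested. The added 1 understates the difference of genes with low values. A gene is called higher or lower (in the ventral midbrain) at a Benjamini-Hochberg adjusted p below 0.05 with a log2 difference of at least 1 in size. For genes with 0 reads in a whole group, a lower bound of the fold is given, computed against 3 reads over that group's libraries. For genes with 1 to 3 reads in a group, the ratio of pooled values is given with its exact 95% interval, which covers counting error only.

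Of 13567 genes tested, 1615 (11.9%) were called. Ventral expression was higher for 1014 genes (7.47%) and lower for 601 (4.43%), and the median difference over all genes was -0.05. All 3 ventral libraries lay above all 3 dorsal libraries for 22.7% of the genes, and below them for 26.0%. Depth ran from 1243928 to 2973565 reads in the ventral and from 1912216 to 2802250 reads in the dorsal libraries.

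Several libraries stood apart, and this touches some results below. The summed level of 15 meningeal and mesenchymal genes (Zic1 left out, since tectal neurons use it) was 9.06, 14.2 and 12.6 RPKM in the ventral and 8.78, 187 and 97.7 RPKM in the dorsal libraries. Dorsal replicates 3 and 4 thus carried meningeal transcripts that dorsal replicate 2 did not. The count of genes called lower was 284 (2.11%) with dorsal replicate 2 as the 1 dorsal library, assumed to vary like the ventral ones, and 739 (5.49%) were then higher. Ventral replicate 2 had several alar and forebrain transcripts above its 2 partners, for example Lhx9 at 8.74, 0.137 and 0.718 RPKM. Without it, 978 genes (7.2%) were higher and 572 (4.21%) lower. Ventral replicates 3 and 4 differed from each other little more than counting noise gives, with a chi-square of 1.11 per degree of freedom against 2.35 to 5.41 for the other pairs within a region. They were kept as 2 libraries.

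The labelled regions matched their markers. Slc6a3, the dopamine transporter gene and a marker of dopaminergic neurons, was at 17.7, 18.8 and 16.9 RPKM in the ventral and 0, 0 and 0.309 RPKM in the dorsal libraries. Pax7, a transcription factor gene of the alar midbrain, was at 0.307, 3.67 and 4.25 RPKM in the ventral and 49.8, 50.4 and 41.0 RPKM in the dorsal libraries. Ccnd1, for the G1 cyclin D1, was at 7.77, 10.9 and 9.24 RPKM in the ventral and 146, 167 and 188 RPKM in the dorsal libraries. For all 3 genes the groups lay far apart with no overlap, and the ventral libraries with the most Pax7 were replicates 3 and 4. The differences were 4.10 ± 0.19 for Slc6a3 (limma adjusted p = 2.74e-06), -3.91 ± 0.45 for Pax7 (adjusted p = 0.000377) and -4.03 ± 0.14 for Ccnd1 (adjusted p = 4.44e-07). The pooled ratio for Slc6a3 was 156 (95% interval 53.0 to 760.0). Pax7 differed by no less with dorsal replicate 2 alone, but with a larger standard error (0.865 against 0.449) and no call (adjusted p = 0.0534). On mm10, with GENCODE vM21 genes, Slc6a3 spans chr13:73536747-73578672 (plus strand), Pax7 chr4:139737062-139833528 (minus) and Ccnd1 chr7:144929931-144939925 (minus). In bulk tissue, fewer cells of a type and less RNA per cell cannot be told apart, and this holds for every gene group below.

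**Figure D1:**
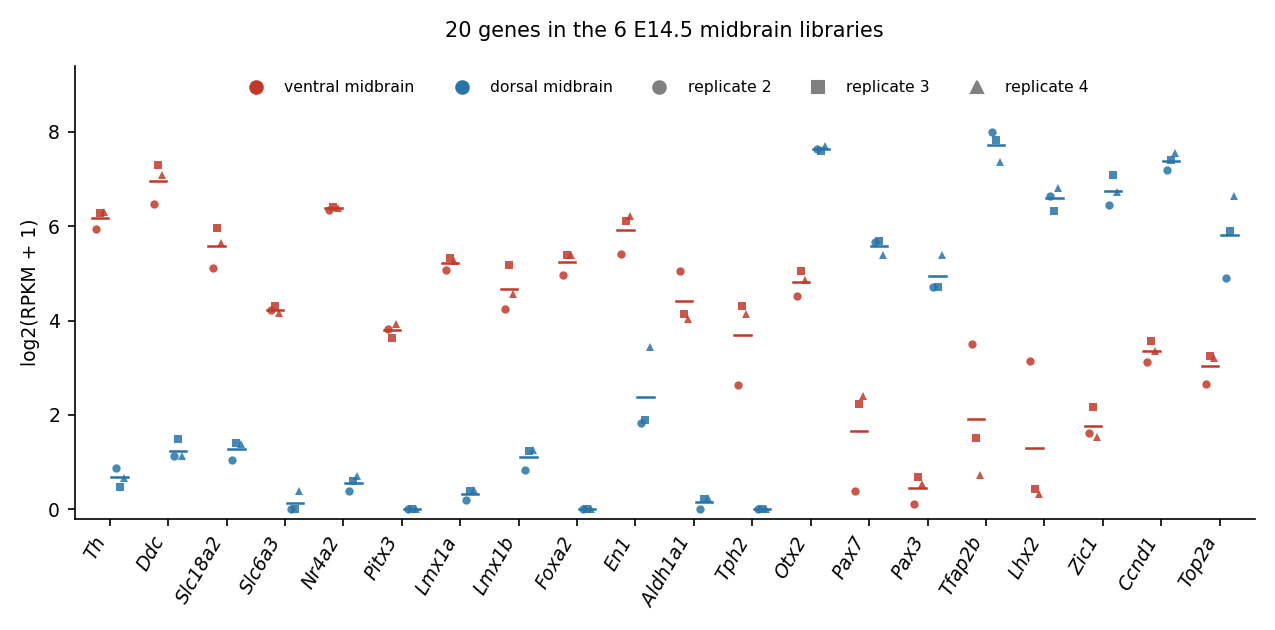
Level of 20 genes, as log2(RPKM + 1), in each of the 6 libraries at E14.5; red symbols are ventral and blue symbols dorsal midbrain, symbol shapes are replicates 2, 3 and 4, and bars are group means. The dopaminergic genes sit high in the ventral and near 0 in the dorsal libraries, while Otx2, Pax7, Pax3, Tfap2b, Lhx2, Zic1, Ccnd1 and Top2a show the opposite order.

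Dopamine synthesis, storage and transport genes were higher in the ventral midbrain as a group. Of 14 members tested, 9 were higher and 0 lower, with a median difference of 2.42 against -0.05 over all genes. Th, for tyrosine hydroxylase, the rate-limiting enzyme, was at 60.7, 77.1 and 77.8 RPKM in the ventral and 0.845, 0.384 and 0.592 RPKM in the dorsal libraries. Ddc, which makes dopamine from L-DOPA, was at 87.9, 156 and 135.1 RPKM in the ventral and 1.19, 1.79 and 1.17 RPKM in the dorsal libraries. Slc18a2, for the vesicular monoamine transporter, was at 33.8, 61.0 and 48.9 RPKM in the ventral and 1.07, 1.65 and 1.60 RPKM in the dorsal libraries. In each gene, replicate 2 was the lowest ventral library and still far above every dorsal one. The differences were 5.503 ± 0.16 for Th, 5.71 ± 0.21 for Ddc and 4.29 ± 0.22 for Slc18a2, with adjusted p of 2.95e-07, 7.19e-07 and 4.13e-06.

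Other members called higher included Gch1, for the first enzyme of the tetrahydrobiopterin cofactor (3.01 ± 0.22), the dopamine autoreceptor gene Drd2 (1.70 ± 0.27), and Ret (2.83 ± 0.18) and Gfra1 (2.01 ± 0.16), which encode the receptor for GDNF. The later enzymes of the cofactor pathway were not called. Qdpr was at 33.7 ± 5.12 RPKM in the ventral and 33.0 ± 2.52 in the dorsal midbrain, a difference of 0.02 ± 0.13 (adjusted p = 0.91). Pts and Spr differed by -0.24 ± 0.17 and -0.00 ± 0.25, and the catabolic gene Maob by 0.71 ± 0.30, none of them called. Between genes of this group, ventral levels ran from 2.37 RPKM for Maob to 126 RPKM for Ddc.

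Of 16 transcription factor genes of dopaminergic development, 9 were higher and 1 lower (median 1.36). Nr4a2, the nuclear receptor gene that these neurons need for their transmitter identity, was at 80.9, 84.2 and 83.2 RPKM in the ventral and 0.303, 0.518 and 0.638 RPKM in the dorsal libraries. Lmx1a, for the homeodomain factor of the midline, was at 32.6, 39.0 and 37.3 RPKM in the ventral and 0.152, 0.311 and 0.320 RPKM in the dorsal libraries. Pitx3, for a homeodomain factor of the maturing neurons, was at 13.2, 11.4 and 14.2 RPKM in the ventral libraries and listed at 0 in the dorsal ones. The ventral libraries were close to one another for each of these genes, and every dorsal library was near or at 0. The differences were 5.82 ± 0.14, 4.89 ± 0.16 and 3.80 ± 0.19 (adjusted p = 1.57e-07, 4.33e-07 and 4.13e-06), and Pitx3 was at least 48.1-fold higher. Pitx3 shares exon bases with Elovl3 on the opposite strand. Since the strand of the libraries is not given in the sources used here, reads of overlapping genes cannot be told apart, which also touches Shh, Pax5, Nkx2-2 and Mcm7 below.

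The forkhead genes of the floor plate and its descendants, Foxa1 and Foxa2, had 0 reads in the 3 dorsal libraries. Foxa1 was at 38.3, 50.9 and 47.8 RPKM in the ventral libraries, at least 356-fold higher (5.53 ± 0.17, adjusted p = 2.95e-07). Foxa2 was at 30.2, 40.8 and 40.7 RPKM, at least 196-fold higher (5.24 ± 0.18, adjusted p = 4.44e-07). Lmx1b, which acts beside Lmx1a and also in serotonergic neurons, differed by 3.56 ± 0.25.

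The engrailed genes were not silent in the dorsal pieces. En1 was at 41.4, 67.9 and 73.9 RPKM in the ventral and 2.56, 2.69 and 9.80 RPKM in the dorsal libraries. Dorsal replicate 4 had the most En1 of the dorsal libraries, but no dorsal library reached the ventral range. The difference was 3.53 ± 0.40 (adjusted p = 0.000369), and that of En2 was 1.38 ± 0.33, with 56.4 ± 12.55 RPKM in ventral and 22.9 ± 13.4 in dorsal midbrain. Otx2, which marks forebrain and midbrain and restrains some dopaminergic subsets, was lower, at 22.1, 32.2 and 28.0 RPKM in the ventral and 199.5, 192 and 206 RPKM in the dorsal libraries (-2.83 ± 0.13, adjusted p = 2.42e-06). It shares exon bases with an antisense gene, Otx2os1. Sox6, a factor of nigral dopaminergic neurons, was at 4.77 ± 1.11 RPKM in the ventral and 10.3 ± 1.28 in the dorsal midbrain, and its difference of -0.99 ± 0.19 was just short of the size needed for a call. Pbx3 (0.38 ± 0.14) and Satb1 (-0.18 ± 0.13) were not called.

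Genes that mark subsets of dopaminergic neurons or their axons were mostly higher, 13 of 21 tested, with 1 lower (median 1.28). Chrna6, a nicotinic receptor subunit of dopaminergic terminals, was at 16.0, 23.8 and 24.7 RPKM in the ventral libraries and had 0 reads in the dorsal ones, at least 150.1-fold higher. Its usual partner Chrnb3 was at 1.63 RPKM against 0.129 (1.22 ± 0.26). Aldh1a1, a retinaldehyde dehydrogenase of ventral tier nigral neurons, was at 32.3, 16.6 and 15.5 RPKM in the ventral and 0, 0.167 and 0.172 RPKM in the dorsal libraries. Here ventral replicate 2 was the highest, the reverse of the order seen for Ddc and Slc18a2. The difference was 4.26 ± 0.28 (adjusted p = 1.85e-05) and the pooled ratio 192 (95% interval 52.8 to 1595). Dlk1, a Notch-like ligand gene regulated by Nr4a2, was higher by 3.69 ± 0.21. The calcium-binding protein genes Calb1 and Calb2, of ventral tegmental neurons, were higher by 1.12 ± 0.24 and 2.88 ± 0.41, and the cell adhesion gene Alcam by 1.89 ± 0.14. Sncg, for gamma-synuclein, was the 1 member called lower, with 20.1 ± 3.08 RPKM in ventral and 49.0 ± 10.9 in dorsal midbrain (-1.23 ± 0.18). Kcnj6, the GIRK2 channel gene of nigral neurons, was at 1.04 RPKM against 0.262 and was not called (0.69 ± 0.28).

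Sulf1 and Spon1, for secreted products of the ventral midline, had the largest differences among the named genes, and 12 of 19 floor plate genes tested were higher, with 1 lower (11 and 0 with dorsal replicate 2 alone; median 2.27). Sulf1, for an extracellular sulfatase that trims heparan sulfate, was at 108, 219.6 and 193 RPKM in the ventral and 0.421, 0.575 and 0.443 RPKM in the dorsal libraries. Spon1, for the matrix protein F-spondin, was at 56.6, 124 and 112 RPKM in the ventral and 0.584, 0.570 and 0.175 RPKM in the dorsal libraries. Ntn1, for the axon attractant netrin-1, was at 119, 185 and 178 RPKM in the ventral and 3.40, 1.83 and 1.26 RPKM in the dorsal libraries. All 3 genes were lowest in ventral replicate 2 among the ventral libraries, and the groups were separated by a wide gap. The differences were 6.82 ± 0.23 for Sulf1, 6.03 ± 0.28 for Spon1 and 5.70 ± 0.25 for Ntn1 (adjusted p = 4.44e-07, 2.63e-06 and 2.15e-06). Sulf1 lies at chr1:12692277-12861192 (plus strand), Spon1 at chr7:113765998-114043370 (plus) and Ntn1 at chr11:68209364-68400823 (minus).

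Shh, for Sonic hedgehog, was at 10.9, 25.3 and 18.2 RPKM in the ventral libraries and reached 0.129 RPKM in 1 dorsal library, with a pooled ratio of 330.2 (95% interval 58.7 to 13089.6). Wnt5a, which promotes dopaminergic differentiation, was higher by 3.51 ± 0.20, the midbrain floor plate marker Corin by 3.58 ± 0.30 and the bHLH gene Ferd3l by 2.15 ± 0.42. Wnt1, which marks both the midline flanks and the roof plate, was the 1 member called lower, at 0.953, 1.30 and 1.46 RPKM in the ventral and 2.33, 4.91 and 6.52 RPKM in the dorsal libraries (-1.25 ± 0.31, adjusted p = 0.0136). Msx1, a factor of the dopaminergic progenitor domain and of the roof plate, was at 4.64 ± 1.62 RPKM in the ventral and 4.45 ± 2.46 in the dorsal midbrain.

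Transcripts of other ventral neuron types were detected in the ventral pieces. Of 8 serotonergic genes tested, 5 were higher and 1 lower. Tph2, for the enzyme that commits tryptophan to serotonin, was at 5.18, 18.9 and 16.7 RPKM in the ventral libraries with 0 dorsal reads, at least 76.7-fold higher. Slc6a4, for the serotonin transporter, was at 9.57, 28.0 and 30.3 RPKM in the ventral and 0, 0 and 0.129 RPKM in the dorsal libraries, a pooled ratio of 409.8 (95% interval 73.0 to 16237). Both genes were lowest in ventral replicate 2. The factor gene Fev, of serotonergic neurons, was at least 27.0-fold higher (4.90, 10.7 and 7.60 RPKM). Lmx1b, already counted above, is 1 of the 5. The summed level of the 10 listed serotonergic genes was 85.7, 145.5 and 124 RPKM in the ventral and 57.8, 60.9 and 52.1 RPKM in the dorsal libraries. The dorsal sum holds Gata2, also on the list of GABAergic genes, at 16.0, 18.0 and 18.7 RPKM, while Tph2 and Fev had 0 dorsal reads. It is thus no measure of serotonergic neurons in the dorsal pieces. Serotonergic neurons are known from the hindbrain, and their part in the other ventral differences was not tested. The call of Gata2 as lower (-1.36 ± 0.13) was lost when all 15 E14.5 libraries shared 1 fit (adjusted p = 0.0806).

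Of 8 genes of oculomotor and other cholinergic neurons, 5 were higher and 2 lower (4 and 1 with dorsal replicate 2 alone). Ret, counted above with the dopamine genes, is 1 of the 5. The list members Chat, Phox2a, Mnx1 and Tbx20 stayed under the filter on low values and were not tested. Slc18a3, for the vesicular acetylcholine transporter, was at 2.41, 2.56 and 2.86 RPKM in the ventral and 0.416, 0 and 0 RPKM in the dorsal libraries, a pooled ratio of 24.0 (95% interval 6.21 to 206). Isl1, a motor neuron factor, was at 9.88 ± 4.06 RPKM in the ventral and 4.96 ± 1.27 in the dorsal midbrain, with overlapping libraries and no call (0.81 ± 0.30). Its relative Isl2 was lower (-2.20 ± 0.26), with 2.95, 4.57 and 4.88 RPKM in the dorsal and 0.345, 0 and 0 RPKM in the ventral libraries, a dorsal over ventral pooled ratio of 24.5 (95% interval 6.50 to 207).

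Basal plate neurons split into genes of each side. Among 13 genes of the red nucleus and other basal glutamatergic neurons, 5 were higher and 4 lower (3 and 3 with dorsal replicate 2 alone). The basal progenitor gene Nkx6-1 was higher by 3.19 ± 0.23, with a pooled ratio of 65.8 (95% interval 17.8 to 550.3). Sim1, of basal neurons, had 0 dorsal reads and was at least 63.7-fold higher. The members called lower were the POU factor genes Pou4f1 (-2.14 ± 0.11), Pou4f2 (-2.42 ± 0.20) and Pou4f3 (-1.99 ± 0.28) and the homeobox gene Barhl1 (-2.73 ± 0.43), and these are also known from tectal neurons. Pou4f1 was at 19.2, 20.02 and 16.9 RPKM in the ventral and 94.4, 86.4 and 78.2 RPKM in the dorsal libraries.

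Among 17 genes of GABAergic neurons, 5 were higher and 4 lower (2 and 4 with dorsal replicate 2 alone). The enzyme genes Gad1 and Gad2 were not called, at 31.6 ± 2.40 and 24.4 ± 1.11 RPKM in ventral and 37.5 ± 6.57 and 22.3 ± 7.29 in dorsal midbrain. Several selector genes of midbrain GABAergic neurons were lower, while Gata3 and Tal1 (-0.36 ± 0.17 and -0.63 ± 0.15) were not called. Tal2 was at 5.14, 6.46 and 5.79 RPKM in the ventral and 159, 156 and 214 RPKM in the dorsal libraries (-4.69 ± 0.14, adjusted p = 2.95e-07). Helt, which acts upstream of Tal2, differed by -2.87 ± 0.18, and Sox14 by -2.12 ± 0.24. On the ventral side, Nkx2-2, of the basal domain next to the floor plate, was at least 37.1-fold higher, and Pax8 had a pooled ratio of 82.2 (95% interval 14.2 to 3297). Otp, a hypothalamic and hindbrain factor, was at 0.525, 4.39 and 8.89 RPKM in the ventral libraries and ran low in replicate 2. Its call (adjusted p = 0.0209) was lost when ventral replicate 3 or 4, or dorsal replicate 3 or 4, was left out.

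The dorsal counterpart was a broad set of alar transcription factors. Of 30 tectal factor genes tested, 20 were lower in the ventral midbrain and 1 was higher (13 and 1 with dorsal replicate 2 alone), with a median difference of -3.04. Pax3, the partner of Pax7 in alar patterning, was at 0.0848, 0.608 and 0.453 RPKM in the ventral and 25.3, 25.3 and 40.9 RPKM in the dorsal libraries. Zic1, of the roof and dorsal neural tube, was at 2.05, 3.50 and 1.91 RPKM in the ventral and 86.6, 134 and 105 RPKM in the dorsal libraries. Tfap2b, an AP-2 factor gene of tectal neurons, was at 10.4, 1.86 and 0.647 RPKM in the ventral and 254, 227 and 164 RPKM in the dorsal libraries. The groups did not overlap for any of these genes, although Tfap2b had 1 ventral library, replicate 2, well above the other 2. The differences were -4.49 ± 0.24, -4.98 ± 0.21 and -5.82 ± 0.58 (adjusted p = 5.63e-06, 1.49e-06 and 0.000179). Tfap2b, at chr1:19208914-19238576 (plus strand), showed the largest negative difference among the named genes.

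Other Zic genes were lower too, with differences of -3.62 ± 0.32 for Zic2, -4.37 ± 0.25 for Zic4 and -2.19 ± 0.25 for Zic5. Zic1 and Zic4 share exon bases on opposite strands. The homeobox gene Dmbx1, of dorsal midbrain progenitors and neurons, had 1 read in the ventral libraries and was at 25.9, 21.2 and 15.6 RPKM in the dorsal ones, a dorsal over ventral pooled ratio of 496 (95% interval 88.6 to 19609). Shox2 and Mab21l2, of tectal development, were lower, with differences of -4.07 ± 0.34 and -3.23 ± 0.24, and both share exon bases with an opposite gene (Rsrc1 and Lrba).

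The LIM and Bar homeobox genes Lhx2, Lhx9 and Barhl2 were high in every dorsal library and differed strongly within the ventral group. Lhx2 was at 7.89, 0.337 and 0.251 RPKM in the ventral and 98.2, 79.1 and 111 RPKM in the dorsal libraries. Barhl2 was at 6.69, 1.67 and 0 RPKM in the ventral and 49.6, 49.4 and 46.6 RPKM in the dorsal libraries. In these genes, as for Lhx9 above, ventral replicate 2 held most of the ventral signal. The differences were -5.29 ± 0.64, -4.60 ± 0.65 and -4.18 ± 0.58 (adjusted p = 0.000459, 0.00102 and 0.000964), in the same order. With dorsal replicate 2 alone they were as large, at -5.33 ± 1.23, -4.74 ± 1.26 and -4.21 ± 1.13, but the standard errors were larger and none was called (adjusted p = 0.0615, 0.0802 and 0.0821). Dbx1, of progenitors at the alar and basal border, was at 3.09, 0.369 and 0 RPKM in the ventral and 25.5, 37.5 and 85.8 RPKM in the dorsal libraries (-4.65 ± 0.55). Its difference with dorsal replicate 2 alone was -3.90 ± 0.84, also without a call (adjusted p = 0.0528). Pax6, at 2.85, 3.19 and 1.90 RPKM in the ventral and 0, 0.189 and 0.0969 RPKM in the dorsal libraries, was the 1 listed factor called higher, with a pooled ratio of 24.9 (95% interval 8.11 to 124). The iroquois genes Irx1, Irx2, Irx3 and Irx5 differed by -0.47 ± 0.13, -0.26 ± 0.13, -0.99 ± 0.31 and -0.94 ± 0.21 and were not called.

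**Figure D2:**
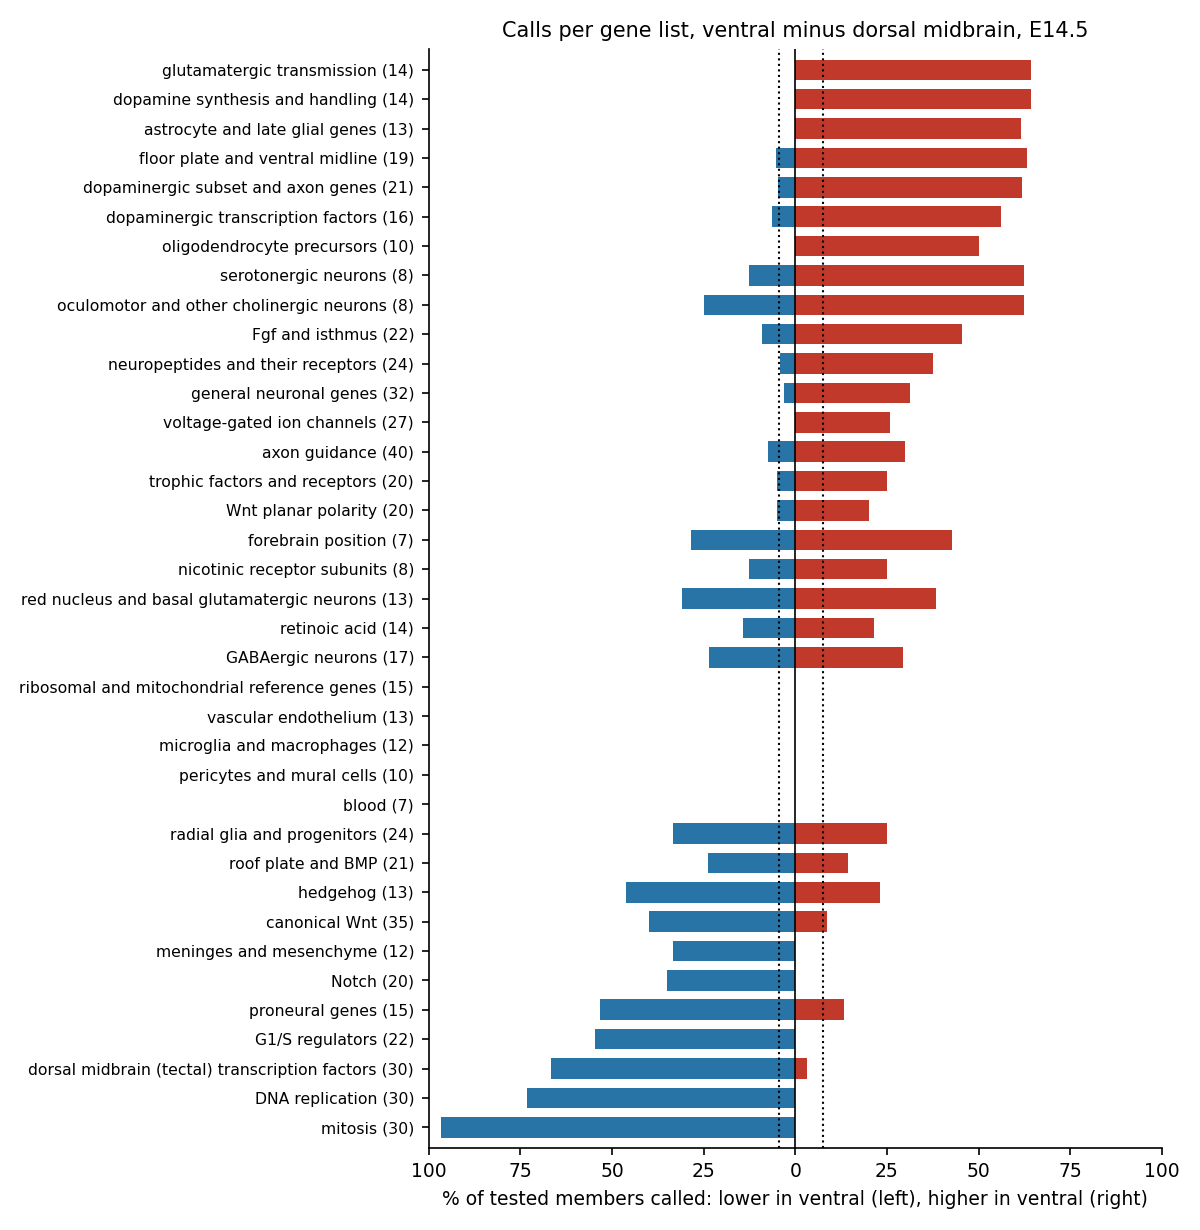
Share of tested members called higher (red, right) and lower (blue, left) in the ventral midbrain at E14.5, for each gene list with at least 7 tested members, whose number stands in brackets. Dotted lines mark the shares over all genes tested, 7.47% higher and 4.43% lower; mitosis reaches farthest to the left, with 29 of 30 members lower.

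Signalling genes divided by pathway. In the canonical Wnt list, 14 of 35 genes were lower and 3 higher (11 and 2 with dorsal replicate 2 alone; median -0.72). The members called lower took in ligand, receptor, effector and feedback genes. Lef1, for a nuclear partner of beta-catenin, was at 1.51, 2.76 and 1.27 RPKM in the ventral and 70.4, 54.2 and 43.5 RPKM in the dorsal libraries. Fzd10, for a Wnt receptor, was at 1.42, 2.34 and 2.91 RPKM in the ventral and 46.7, 57.2 and 82.7 RPKM in the dorsal libraries. Axin2, a feedback inhibitor and direct target, was at 4.40, 8.30 and 6.06 RPKM in the ventral and 28.8, 35.5 and 36.0 RPKM in the dorsal libraries. Each gene was uniformly low in the ventral and high in the dorsal libraries, replicate 2 included. The differences were -4.33 ± 0.23, -4.28 ± 0.24 and -2.28 ± 0.20 (adjusted p = 5.42e-06, 7.15e-06 and 8.81e-05).

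Sp5, a target gene of the pathway, differed by -4.16 ± 0.23, with a dorsal over ventral pooled ratio of 119 (95% interval 32.7 to 987). The ligand gene Wnt3 was lower (-2.41 ± 0.22), and the agonist gene Rspo1 had 0 ventral reads and was at least 32.4-fold lower. The inhibitor genes Nkd1 and Wif1 were lower, with -2.16 ± 0.18 and -1.79 ± 0.24, and Dkk1, with 0 ventral reads, was at least 19.2-fold lower. Other inhibitor genes differed in the other direction or were not called, Sfrp1 at 0.89 ± 0.12 and Sfrp2 at -0.49 ± 0.18 without a call and Dkk3 called higher. Ctnnb1, for beta-catenin itself, was lower too, at 255 ± 15.4 RPKM in ventral and 635 ± 58.7 in dorsal midbrain (-1.31 ± 0.10), and it shares exon bases with Ulk4. The 3 members called higher were Dkk3 (1.71 ± 0.35), Fzd9 (1.05 ± 0.25) and Wnt8b, with a pooled ratio of 53.1 (95% interval 9.03 to 2148). In the planar polarity list, 4 of 20 were higher and 1 lower (3 and 0 with dorsal replicate 2 alone), with a median of 0.01. Besides Wnt5a these were Prickle1 (1.79 ± 0.31), Prickle2 (1.25 ± 0.15) and Daam2 (1.78 ± 0.29), and the receptor gene Ror2 was lower (-1.32 ± 0.27). The core genes Vangl2 and Celsr3 differed by -0.19 ± 0.11 and 0.02 ± 0.15.

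In the hedgehog list, 3 of 13 genes were higher and 6 lower. The higher ones included the ligand gene Shh and the receptor and target gene Ptch1 (1.79 ± 0.16). Ptch1 was at 18.2, 19.9 and 14.98 RPKM in the ventral and 4.75, 4.62 and 3.74 RPKM in the dorsal libraries. The co-receptor genes Boc, Cdon and Gas1 were lower, with differences of -3.73 ± 0.31, -2.18 ± 0.22 and -3.02 ± 0.36. So were the transducer gene Smo (-1.150 ± 0.22) and the effector genes Gli2 (-2.51 ± 0.21) and Gli3 (-3.27 ± 0.22). Gli3, which acts mainly as a repressor, was at 1.22, 0.471 and 0.844 RPKM in the ventral and 13.49, 16.3 and 20.7 RPKM in the dorsal libraries. Shh and Ptch1 were thus above the dorsal range in every ventral library, and co-receptor and Gli genes below it. Gli1, the usual readout of pathway activity, stayed under the filter on low values and was not tested.

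Notch pathway genes were lower or not called, with 7 of 20 lower and 0 higher (4 and 0 with dorsal replicate 2 alone). Hes5, a Notch target of radial glia, was at 13.0, 15.2 and 16.2 RPKM in the ventral and 56.4, 65.2 and 113 RPKM in the dorsal libraries (-2.27 ± 0.23). The ligand genes Dll1, Dll3 and Jag1 were lower, with differences of -1.149 ± 0.17, -1.08 ± 0.21 and -1.60 ± 0.14. Among receptor genes, Notch1 differed by -0.88 ± 0.21, Notch2 by 0.18 ± 0.28 and Notch3 by -0.43 ± 0.17, without a call.

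In the Fgf and isthmus list, 10 of 22 genes were higher and 2 lower (8 and 1 with dorsal replicate 2 alone). Pax5, which marks the midbrain and hindbrain boundary, was at 33.7, 26.4 and 23.4 RPKM in the ventral libraries with 0 dorsal reads, at least 94.9-fold higher (4.83 ± 0.19, adjusted p = 9.68e-07). Intracellular targets of Fgf signalling were higher, among them Etv4 (1.45 ± 0.32), Etv5 (1.91 ± 0.25), Dusp6 (1.23 ± 0.26) and Spry2 (1.08 ± 0.19), as was the ligand gene Fgf18 (1.70 ± 0.29). Fgf15, a ligand gene of dorsal midbrain progenitors, was at 0.882, 1.26 and 0.629 RPKM in the ventral and 39.2, 44.2 and 37.7 RPKM in the dorsal libraries (-4.43 ± 0.17, adjusted p = 7.29e-07). No dorsal library of Fgf15 came near a ventral one. It lies at chr7:144896531-144900953 (plus strand), next to Ccnd1. Fgf8 was below the filter on low values.

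In the roof plate and BMP list, 3 of 21 genes were higher and 5 lower (2 and 3 with dorsal replicate 2 alone). The BMP target genes Id1 and Id2 were lower, with differences of -1.79 ± 0.23 and -1.47 ± 0.21. These were -1.62 ± 0.39 and -1.44 ± 0.32 with dorsal replicate 2 alone, not called (adjusted p = 0.0673 and 0.0571). Id3 and Id4 differed by -0.33 ± 0.31 and -0.12 ± 0.14 and were not called. The antagonist gene Chrdl1 was lower (-2.52 ± 0.21) and the antagonist gene Grem1 higher by 1.22 ± 0.26. In the retinoic acid list, 3 of 14 were higher and 2 lower (3 and 5 without dorsal replicate 2). The synthesis gene Aldh1a1 and the retinaldehyde reductase gene Dhrs3 were higher, Dhrs3 by 1.86 ± 0.28, as was the receptor gene Rxrg (2.07 ± 0.26), and the binding protein genes Crabp1 and Crabp2 were lower, with differences of -3.35 ± 0.43 and -2.02 ± 0.21. Aldh1a2, also a meningeal gene, was at 0, 4.23 and 7.44 RPKM in the dorsal libraries, with no signal in replicate 2.

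Cell cycle genes were called lower, and none higher, in all 3 cell cycle lists. Of 30 mitosis genes, 29 were lower and 0 higher, with a median difference of -2.12. Of 30 DNA replication genes, 22 were lower and 0 higher (median -1.26), and of 22 regulators of G1 and S phase entry, 12 were lower and 0 higher (median -1.13). The share called lower over all genes was 4.43%. With dorsal replicate 2 as the 1 dorsal library these counts were 16, 7 and 6, with medians of -1.503, -0.91 and -0.71, against 2.11% over all genes. Without dorsal replicate 2 they were 29, 25 and 12.

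The summed level of the 30 mitosis genes was 119, 152 and 148 RPKM in the ventral and 376, 573 and 898 RPKM in the dorsal libraries. For DNA replication the sums were 208, 218 and 204 RPKM in the ventral and 413, 494 and 761 RPKM in the dorsal libraries. Dorsal replicate 4 was the highest and replicate 2 the lowest dorsal library in both sums, and no ventral library reached either of them. The part of the meningeal transcripts of dorsal replicates 3 and 4 in these sums was not tested.

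**Figure D3:**
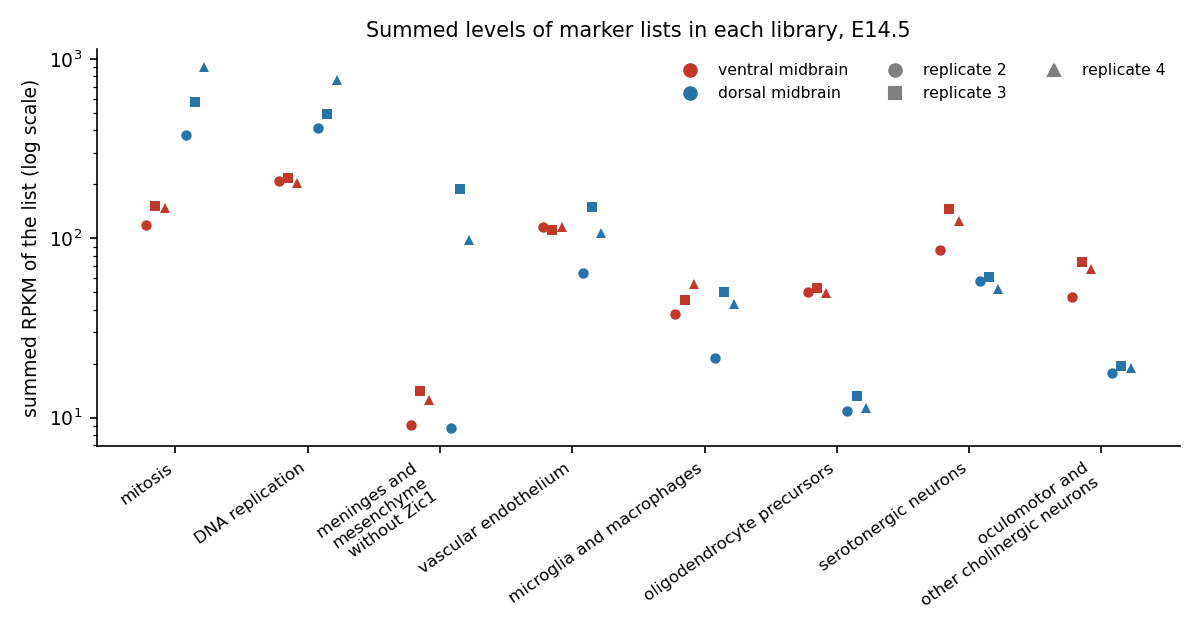
Summed RPKM of 8 gene lists (log10 axis) in each of the 6 E14.5 libraries; red symbols are ventral and blue symbols dorsal midbrain, and symbol shapes are replicates 2, 3 and 4. Mitosis and DNA replication sums are higher in all 3 dorsal libraries, and the meningeal sum is high only in dorsal replicates 3 and 4.

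Among the named mitosis genes, Top2a, for the topoisomerase that separates sister DNA, was at 5.31, 8.47 and 8.23 RPKM in the ventral and 29.1, 59.1 and 98.6 RPKM in the dorsal libraries (-2.78 ± 0.37). Ccnb1, for the mitotic cyclin B1, was at 3.62, 4.99 and 4.97 RPKM in the ventral and 19.5, 29.2 and 44.3 RPKM in the dorsal libraries (-2.47 ± 0.26, adjusted p = 0.000252). Top2a and Ccnb1 were lowest in replicate 2 and highest in replicate 4 of the dorsal group, and no ventral library overlapped them. Bub1, of the spindle checkpoint, was lower (-2.54 ± 0.27), as was Mki67, for the proliferation marker Ki-67, which is on the list of progenitor genes (-2.52 ± 0.31). The 1 mitosis gene not called was Bub3 (-0.14 ± 0.12), at 42.6 ± 3.40 RPKM in the ventral and 47.2 ± 7.14 in the dorsal midbrain.

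In DNA replication, the helicase genes Mcm2, Mcm3, Mcm5 and Mcm7 were lower, with differences of -2.02 ± 0.20, -2.15 ± 0.33, -1.75 ± 0.27 and -1.49 ± 0.19. The nucleotide reductase gene Rrm2 was lower (-2.19 ± 0.30), as was Pcna, for the polymerase clamp (-1.25 ± 0.20). Genes of the general replication machinery that were not called, such as Lig1 and Rpa2, differed by -0.60 ± 0.23 and -0.67 ± 0.30.

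Among G1 and S regulators, the difference of Ccnd1 was the largest, and its relatives Ccnd2 and Ccnd3 differed by -1.56 ± 0.24 and -0.83 ± 0.16. E2f1, for an activator of S phase genes, was lower (-2.25 ± 0.27), as was Cdk4, the cyclin D partner (-1.22 ± 0.14), though Cdk4 shares exon bases with Tspan31. The cell cycle inhibitor gene Cdkn1c was also lower, at 56.3, 61.8 and 74.0 RPKM in the ventral and 223, 215 and 300.2 RPKM in the dorsal libraries (-1.92 ± 0.15). Cdkn1a and Cdkn1b differed by 0.63 ± 0.16 and -0.46 ± 0.11, and Myc by 0.95 ± 0.14, without a call. Ccnd1 thus stood apart from most of the list in size, and regulators and inhibitors of the cycle were among the genes called lower.

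Promoters of these genes are shown because their members moved together. Mitotic promoters are known for paired CCAAT boxes with a CHR element (TTTGAA), and S phase promoters for E2F sites (TTCCCGC or TTGGCGC). In RefSeq promoter windows of 300 bases (250 before to 50 after the start, GRCm38.p6), both strands searched, 25 of the 30 mitosis genes had a window. Of these, 20 (80.0%) held CCAAT, 19 (76.0%) TTTGAA and 17 (68.0%) both. Among 9763 tested genes with a window, 43.2% held CCAAT, 13.49% TTTGAA and 5.56% both, and among all 32851 windows the shares were 37.4%, 17.9% and 6.95%. Of 24 DNA replication genes with a window, 16 (66.7%) held TTCCCGC or TTGGCGC, against 14.3% of the tested genes and 6.81% of all windows. A match describes letters in a window, not a bound site. The 150 bases before the start are printed 5′ to 3′ on the gene's strand. In the first 3, capitals mark CCAAT or TTTGAA on either strand (ATTGG and TTCAAA are the reverse strand's letters), and in the last 2, TTCCCGC on either strand (GCGGGAA on the reverse).
Top2a, chr11:99024190-99024339, minus strand: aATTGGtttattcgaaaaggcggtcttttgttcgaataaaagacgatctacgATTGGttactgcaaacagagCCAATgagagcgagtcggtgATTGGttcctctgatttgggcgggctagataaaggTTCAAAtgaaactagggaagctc
Cdc20, chr4:118437344-118437493, minus strand: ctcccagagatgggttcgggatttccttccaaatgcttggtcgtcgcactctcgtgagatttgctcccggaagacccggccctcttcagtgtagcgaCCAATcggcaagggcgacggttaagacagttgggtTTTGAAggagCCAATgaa
Ube2c, chr2:164769779-164769928, plus strand: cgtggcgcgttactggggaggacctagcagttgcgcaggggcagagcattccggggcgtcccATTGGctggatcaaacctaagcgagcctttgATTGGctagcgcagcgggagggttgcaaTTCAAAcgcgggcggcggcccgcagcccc
Cdc6, chr11:98908001-98908150, plus strand: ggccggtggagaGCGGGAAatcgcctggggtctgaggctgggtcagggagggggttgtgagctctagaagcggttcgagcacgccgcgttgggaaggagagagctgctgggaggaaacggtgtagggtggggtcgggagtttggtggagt
Rrm1, chr7:102441545-102441694, plus strand: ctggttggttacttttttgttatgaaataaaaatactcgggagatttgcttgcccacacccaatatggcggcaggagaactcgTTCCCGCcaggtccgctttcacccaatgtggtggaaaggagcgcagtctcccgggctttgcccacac

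The printed promoters were the genes with the largest differences among those called lower that have 1 listed start and the motifs within these 150 bases, 3 of 5 such mitosis genes and 2 of 3 such replication genes. The TTTGAA match began 23 bases before the start in Top2a, 18 in Cdc20 and 29 in Ube2c, and the nearest CCAAT match lay at 58, 8 and 57 bases. Besides Top2a, the differences were -2.37 ± 0.37 for Cdc20, -2.21 ± 0.31 for Ube2c, -1.14 ± 0.29 for Cdc6, which loads the replicative helicase, and -1.14 ± 0.23 for Rrm1. The Nr4a2 half-site motif AAGGTCA was found for 2 of 10 genes with a window in the synthesis list, against 3.60% of tested genes. In the dopaminergic factor list it was found for 1 of 12 genes. These genes had 11 and 27 windows, and a match in any window of a gene counted. The homeodomain core TAATTA was found for 0 and 2 of these genes, against 3.10%. No match says only that these letters are not in the window.

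Proneural genes, which drive progenitors into neurogenesis, were lower for 8 of 15 members and higher for 2 (5 and 1 with dorsal replicate 2 alone). Gadd45g, a target of proneural factors, was at 6.84, 5.45 and 6.61 RPKM in the ventral and 56.3, 61.7 and 80.4 RPKM in the dorsal libraries (-3.19 ± 0.15). Neurog2, the proneural gene of dopaminergic progenitors, was at 10.01, 20.1 and 19.2 RPKM in the ventral and 13.3, 18.8 and 21.7 RPKM in the dorsal libraries. Its groups overlapped, and its difference of -0.15 ± 0.26 was not called (adjusted p = 0.692), whereas for Gadd45g every dorsal library was several times above every ventral one. Neurog1, with 32.7 (95% interval 10.9 to 161) as its dorsal over ventral pooled ratio, and Neurod4 (-1.54 ± 0.30) were also lower, and the 2 members called higher were Olig2 (2.44 ± 0.23) and Neurod6 (1.36 ± 0.36).

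Radial glial genes went in both directions, 6 higher and 8 lower of 24 (median -0.17). General progenitor genes were among those not called. Sox2 was at 43.4 ± 7.25 RPKM in the ventral and 42.9 ± 2.59 in the dorsal midbrain, and Nes, for nestin, at 69.2 ± 18.4 and 68.7 ± 20.8. Their differences were 0.00 ± 0.13 and 0.02 ± 0.25. Genes of later radial glia were higher, with Fabp7, a fatty acid binding protein gene, at 828, 940.1 and 717 RPKM in the ventral and 263, 281 and 312 RPKM in the dorsal libraries (1.53 ± 0.12). The glutamate transporter gene Slc1a3 was higher by 2.27 ± 0.19 and the receptor phosphatase gene Ptprz1 by 2.32 ± 0.16. The members called lower included Nr2e1 (dorsal over ventral pooled ratio 78.0 (95% interval 26.4 to 380.4)), Msi1 (-1.19 ± 0.14), Sox9 (-1.17 ± 0.16) and Sox3 (-1.77 ± 0.29), besides Hes5, Gli3 and Mki67.

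Of 10 oligodendrocyte precursor genes, 5 were higher and 0 lower, and of 13 astrocyte and late glial genes, 8 were higher and 0 lower. Olig1, of the oligodendrocyte lineage, was at 12.9, 11.3 and 12.1 RPKM in the ventral and 0, 0 and 0.161 RPKM in the dorsal libraries, a pooled ratio of 209 (95% interval 36.9 to 8293). Aldoc, a glycolytic gene of astrocytes, was at 46.1, 33.5 and 23.6 RPKM in the ventral and 0.871, 0.594 and 0.203 RPKM in the dorsal libraries. Aldh1l1, a folate enzyme gene used as an astrocyte marker, was at 39.6, 57.3 and 40.7 RPKM in the ventral and 3.28, 5.04 and 4.49 RPKM in the dorsal libraries. All ventral libraries lay far above all dorsal ones in these 3 genes, and Aldoc was highest in ventral replicate 2. The differences were 3.64 ± 0.19, 4.48 ± 0.26 and 3.15 ± 0.18 (adjusted p = 5.42e-06, 9.82e-06 and 9.82e-06).

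The gliogenic factor genes Nfia, Nfib and Nfix were higher by 1.55 ± 0.20, 1.35 ± 0.13 and 1.80 ± 0.18. The matrix gene Sparcl1 was higher by 2.29 ± 0.38. The precursor markers Sox10 and Pdgfra were at 1.67, 1.43 and 2.56 and 2.85, 3.41 and 3.68 RPKM in the ventral libraries, and their differences were 1.153 ± 0.28 and 0.86 ± 0.42. Sox10 was called, but not without ventral replicate 4 (0.99 ± 0.31, adjusted p = 0.0514), without dorsal replicate 2 (0.98 ± 0.28) or with a pseudocount of 5 (0.38 ± 0.10). Pdgfra, which meningeal cells also express, was not called. The summed level of the oligodendrocyte precursor list was 50.2, 52.7 and 49.6 RPKM in the ventral and 10.9, 13.2 and 11.3 RPKM in the dorsal libraries. Foxj1, a factor of ciliated ependymal cells that floor plate cells also express, was higher by 1.90 ± 0.19. The choroid plexus gene Ttr was below the filter on low values.

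Genes of the neuronal cytoskeleton and of secretory vesicles were among those higher in the ventral midbrain. Of 32 general neuronal genes, 10 were higher and 1 lower (7 and 1 with dorsal replicate 2 alone; median 0.79). Tubb3, for neuronal tubulin, was at 1042 ± 94.2 RPKM in the ventral and 1101 ± 33.7 in the dorsal midbrain (-0.08 ± 0.11), and Elavl3 and Dcx differed by -0.15 ± 0.10 and 0.32 ± 0.14, without a call. Scg2, for the granule protein secretogranin II, was at 78.4, 93.6 and 103 RPKM in the ventral and 3.24, 3.31 and 1.98 RPKM in the dorsal libraries (4.60 ± 0.17, adjusted p = 7.26e-07). Nefl, for the light neurofilament, was at 168, 206 and 202 RPKM in the ventral and 45.1, 43.3 and 35.6 RPKM in the dorsal libraries (2.19 ± 0.12). No dorsal library reached the ventral values of Scg2 or Nefl. The neurofilament gene Nefm was higher by 1.99 ± 0.13, the synapsin gene Syn2 by 2.33 ± 0.16 and the tau gene Mapt by 1.38 ± 0.16. Nefl and Nefm overlap each other in the annotation. Cplx2, for a complexin, was lower (-1.02 ± 0.12) and its paralog Cplx1 higher (1.504 ± 0.17). Gap43, of growing axons, differed by 0.98 ± 0.12, just under the size for a call.

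Of 14 genes of glutamatergic transmission, 9 were higher and 0 lower. Slc17a8, for the third vesicular glutamate transporter, was at 7.09, 16.1 and 14.6 RPKM in the ventral and 0, 0.0784 and 0.0805 RPKM in the dorsal libraries, a pooled ratio of 188 (95% interval 51.7 to 1564). Slc17a6, for the transporter of most midbrain glutamatergic neurons, was at 36.7 ± 7.14 RPKM in the ventral and 41.4 ± 5.95 in the dorsal midbrain (-0.18 ± 0.15) and was not called. Receptor subunit genes that were higher took in Grin1 (1.76 ± 0.20), Gria3 (1.72 ± 0.17), Gria4 (1.40 ± 0.14) and Grik1 (2.05 ± 0.23). Gria1 and Gria2 differed by 0.45 ± 0.16 and 0.82 ± 0.25, without a call.

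Of 27 voltage-gated and related channel genes, 7 were higher and 0 lower (4 and 0 with dorsal replicate 2 alone). Kcnk9, for a two-pore potassium channel, was at 24.4, 35.01 and 33.0 RPKM in the ventral and 1.199, 0.545 and 0.560 RPKM in the dorsal libraries (4.17 ± 0.21, adjusted p = 4.05e-06). The sodium channel subunit genes Scn3b and Scn2a1 were higher by 1.78 ± 0.14 and 1.23 ± 0.17, and the calcium channel subunit gene Cacna2d3 by 1.54 ± 0.13. Hcn4, of the pacemaker current, differed by 0.25 ± 0.18, without a call.

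Of 24 neuropeptide and receptor genes, 9 were higher and 1 lower (6 and 0 with dorsal replicate 2 alone). Calcr, for the calcitonin receptor, was at 8.48, 12.8 and 17.7 RPKM in the ventral libraries with 0 dorsal reads, at least 118-fold higher. The peptide genes Nts and Cck, both of ventral tegmental neurons, were at 19.97, 8.79 and 11.7 RPKM and 8.11, 8.43 and 9.43 RPKM in the ventral libraries, against 0.817, 0 and 0 and 1.64, 1.12 and 1.54 in the dorsal ones. The pooled ratio of Nts was 72.7 (95% interval 19.7 to 608), and Cck differed by 1.99 ± 0.18. Nts ran highest in ventral replicate 2, and Cck was even across the ventral group. Cartpt was higher by 2.64 ± 0.41, and Pnoc, for prepronociceptin, was lower (-1.56 ± 0.22). Pnoc differed by -1.61 ± 0.39 with dorsal replicate 2 alone and was not called (adjusted p = 0.0687). Npy was at 13.6, 0 and 0 RPKM in the ventral libraries, detected there in replicate 2 alone, and it was not called.

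Of 8 nicotinic receptor genes, only Chrna6 and Chrnb3 were higher among those tested, and Chrnb4 was lower, with a dorsal over ventral pooled ratio of 10.5 (95% interval 3.36 to 53.3). The common subunit genes Chrna4 and Chrnb2 differed by 0.10 ± 0.10 and 0.16 ± 0.14. Of 20 trophic genes, 5 were higher and 1 lower (5 and 0 with dorsal replicate 2 alone, 5 and 3 without it), with Tgfb2 (1.91 ± 0.24), Igf1 (1.54 ± 0.22) and the neuregulin receptor gene Erbb4 (1.67 ± 0.21) besides Ret and Gfra1. Bdnf was at 1.32 RPKM against 0.841 and Ntrk2, for its receptor, differed by 0.71 ± 0.17, without a call. Igf2, a gene of meningeal cells, was at 16.0, 11.7 and 13.7 RPKM in the ventral and 13.0, 79.6 and 52.6 RPKM in the dorsal libraries and thus split the dorsal group as the meningeal sum did.

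Axon guidance genes numbered 40 tested, with 12 higher and 3 lower (5 lower without dorsal or without ventral replicate 2). Beside Ntn1, the repellent gene Slit2 was higher by 2.55 ± 0.25 and Slit3 had a pooled ratio of 72.7 (95% interval 19.7 to 608), while Slit1 differed by 0.55 ± 0.22 and was not called. The semaphorin receptor genes Nrp2 and Plxna4 were higher by 2.55 ± 0.15 and 2.18 ± 0.14, and the ephrin receptor genes Epha3 and Epha5 by 2.52 ± 0.21 and 1.73 ± 0.29. Of their ligand genes, 2 were lower: Efna2 was at 13.9, 10.8 and 13.98 RPKM in the ventral and 52.5, 45.7 and 57.0 RPKM in the dorsal libraries (-1.93 ± 0.13), and Efna5 at 9.16, 10.5 and 9.74 and 33.2, 25.9 and 54.6 (-1.78 ± 0.23). Ephrin-A genes are known for mapping retinal axons in the tectum. Draxin, of the dorsal repellent draxin, was lower (-1.42 ± 0.10). The netrin receptor gene Dcc differed by -0.95 ± 0.10, just short of a call, with all dorsal libraries above all ventral ones.

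Few genes of other cell types were called. None of 13 endothelial, 10 mural, 7 blood and 12 microglial genes tested was called at E14.5. At an unadjusted limma p below 0.05 there were 10 of these 42 genes, against 6061 of 13567 over all genes tested. Voom, run on recovered reads, called 1 mural gene (over all genes it called 10% higher and 5.56% lower). With dorsal replicate 2 alone, 2 endothelial genes (Cdh5 and Kdr) and 1 mural gene (Pdgfrb) were among those called higher. Without it, 2 mural genes (Anpep and Vtn), 2 blood genes (Hba-x and Hbb-y) and 1 macrophage gene (Mrc1) were called lower. Over all genes, the fit without dorsal replicate 2 called 788 of 13650 lower. The gene names given for these fits were chosen after their values were seen. The endothelial sum was 116, 111 and 115 RPKM in the ventral and 64.0, 149 and 107 RPKM in the dorsal libraries, lowest in dorsal replicate 2 and highest in dorsal replicate 3. In the meningeal list, Zic1, Twist1, Col3a1 and Col1a1 were lower of 12 tested, against 1 gene with dorsal replicate 2 alone, 9 without it and 2 without ventral replicate 2. Col3a1 was at 1.48, 1.70 and 1.16 RPKM in the ventral and 1.85, 62.3 and 29.3 RPKM in the dorsal libraries, so dorsal replicate 2 was at the ventral level and the difference rests on replicates 3 and 4. The part of meningeal tissue in other dorsal differences was not tested. Of hindbrain and forebrain position genes, Hoxb3, Gbx2 and Nkx2-1 stayed under the filter on low values. None of 15 reference genes was called by limma, and 0 by voom. At an unadjusted limma p below 0.05 there were 7 of the 15, against 6061 of 13567 over all genes tested. However, 8 of the 15, such as Rpl13a (-0.70 ± 0.10), had all dorsal libraries above all ventral ones, against 26.0% of all genes.

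The same regions at E13.5 and E12.5, each stage within 1 run, placed the E14.5 differences in time. At E13.5, 895 genes (6.61%) were higher and 569 (4.2%) lower of 13532 tested, 10.8% in all. At E12.5, 689 genes (5.13%) were higher and 521 (3.88%) lower of 13441, 9.0% in all. Of the genes called higher at E14.5, 702 (69.2%) were also called higher at E13.5, where they made up 78.4% of the calls, and of those called lower 450 (74.9%, and 79.1% of the E13.5 calls). No gene called at both E13.5 and E14.5 changed direction, and 1 called at both E12.5 and E14.5 did. Across 13219 genes tested at both, the differences at E13.5 and E14.5 had a Pearson r of 0.913, a description over genes that share libraries and base level. At each of the 3 stages, 29 of the 30 mitosis genes were called lower.

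Mean ventral levels were followed over the stages. Th stood at 79.1 RPKM at E12.5, 79.9 at E13.5 and 71.9 at E14.5. Slc6a3 stood at 9.56, 10.7 and 17.8 RPKM at the same stages, Pitx3 at 25.6, 28.7 and 12.9, and Foxa2 at 75.1, 58.5 and 37.2. The glial genes Olig1 and Aldoc stood at 1.55, 7.27 and 12.1 RPKM and at 3.50, 13.9 and 34.4 RPKM. Top2a stood at 30.6, 18.2 and 7.34 RPKM in the ventral and 115, 97.6 and 62.3 RPKM in the dorsal midbrain. Each stage was a run of its own, so stage and run cannot be told apart in these levels, and no test of them was made.

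The change of the ventral minus dorsal difference from E13.5 to E14.5 was tested, since a shift that a run adds equally to both regions cancels there. A proportional run effect cancels only for genes with signal in both regions. Of 13880 genes, 3 were called (0.0216%), 2 with a change upwards (0.0144%) and 1 downwards (0.0072%), and 6 had an adjusted p below 0.05, with 1322 at an unadjusted p below 0.05. Aldh1a1 was at 2.36, 1.30 and 1.42 RPKM in the E13.5 ventral libraries (replicates 4, 5 and 6), from 25, 39 and 31 reads. At E14.5 it was at 32.3, 16.6 and 15.5 RPKM, from 205, 44 and 55 reads. Every E14.5 ventral library was several times above every E13.5 one, while the dorsal libraries of both stages had 0 or 1 read each. With so few dorsal reads, a run effect on ventral Aldh1a1 would not cancel, so stage and run cannot be told apart for it. The difference grew by 2.86 ± 0.35 (limma adjusted p = 0.0198). Leaving out ventral replicate 2, the highest, gave 2.54 ± 0.25 (adjusted p = 0.0032), but voom on the recovered reads gave 0.68 ± 1.197 with no call. Peg10, an imprinted retrotransposon-derived gene, went from 80.3 to 122 RPKM in the ventral and from 20.3 to 14.3 RPKM in the dorsal midbrain, a change of 1.07 ± 0.15 (adjusted p = 0.0484). It was called in 6 of 19 alternative fits. The third gene called, Mir1940, rested on 0 to 3 reads per library.

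**Figure D4:**
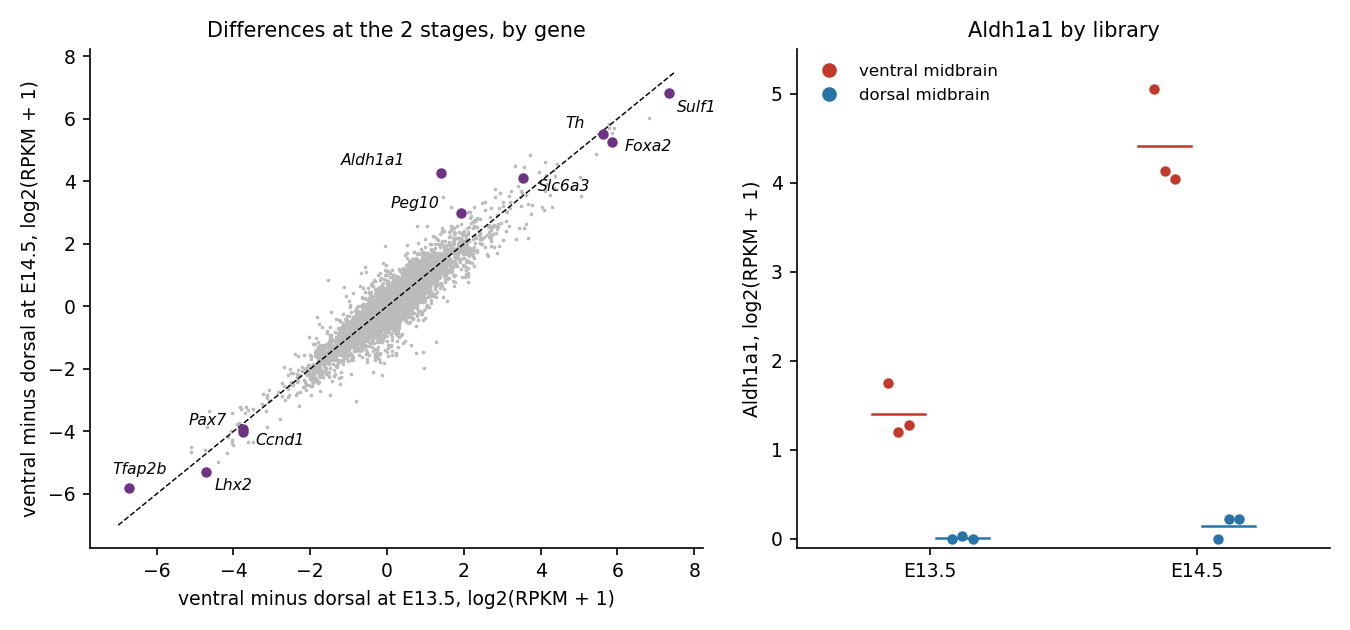
Left, ventral minus dorsal difference on the log2(RPKM + 1) scale at E13.5 (x axis) and E14.5 (y axis), 1 grey point per gene tested at both stages, with 10 genes named in purple and a dashed line of equal differences. Right, Aldh1a1 as log2(RPKM + 1) in each library, red ventral and blue dorsal, with bars at group means; Aldh1a1 lies above the line of equal differences, from 1.40 at E13.5 to 4.26 at E14.5.

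For the other dopaminergic genes no change of the difference was called. The change was -0.12 ± 0.26 for Th, 0.56 ± 0.22 for Slc6a3, -1.03 ± 0.25 for Pitx3 and -1.52 ± 0.58 for En1. Among the dorsal genes it was -0.15 ± 0.60 for Pax7 and -0.28 ± 0.19 for Ccnd1. Sp5, chosen after its value was seen, came nearest among the Wnt genes, with -1.69 ± 0.28 (adjusted p = 0.0658), not called. A change that misses the threshold does not show that the difference stayed the same.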

How the data were processed

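The authors deposited 1 table of RPKM values for 24378 features in 60 libraries, all of which were matched to their labels. Per the submitters' processing notes, reads were aligned with Bowtie and the build was mm10. For the counting tool, annotation and strand setting, the sources used here name nothing. Per the labels' protocols, total RNA was extracted with RNeasy and libraries were made with Illumina TruSeq kits.

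In the 6 libraries, 100.0% of the RPKM values were whole multiples of 1 read (tolerance 0.001), which gave depth and read numbers. Testing covered genes whose mean reached 1 RPKM in either group, and was done on log2(RPKM + 1) with limma 3.58.1 (trend, R 4.3.3; tables in Python 3.11.15), fitted on the 6 libraries, with Benjamini-Hochberg adjustment. The change of the difference between stages used the 12 libraries of both regions at E13.5 and E14.5. Counts of recovered reads entered only an alternative fit with voom. The fit was tested on simulated data.

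The genes in the text are 10 core genes, the 15 largest called differences each way (at least 5 RPKM in the higher group, no overlap), from each of 39 lists up to 6 members of smallest adjusted p, and list members needed to describe a role. The comparison, the lists and the tests were chosen with earlier results of these data known. Same-numbered libraries of the 2 regions were not treated as pairs. Of 213 genes named by this rule, 52 share exon bases with a gene on the other strand. Gene positions are from GENCODE vM21 and promoters from RefSeq. The other regions were not used here apart from 1 alternative fit. Some genes are not reported here.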

Additional observations from a re-analysis of the deposited data

Results flagged for a closer look

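For 3 genes the ventral minus dorsal difference changed between E13.5 and E14.5 by limma's test of the change itself. Aldh1a1 changed by 2.86 on the log2(RPKM + 1) scale (adjusted p = 0.0198), and the 19 alternative fits gave 0.68 to 3.05, with 12 of them calling it. Dorsal libraries had almost no Aldh1a1 reads, so stage and run cannot be told apart for this change. Peg10 changed by 1.07 (adjusted p = 0.0484), with alternatives from 0.959 to 1.204 and 6 of 19 calling it. Mir1940 changed by -2.26 (adjusted p = 0.0198) on 0 to 3 reads per library, with alternatives from -3.34 to -0.67 and 10 of 18 calling it.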

How the results depend on the processing

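No called difference of a named gene changed sign in the fits below. With a pseudocount of 5 in place of 1, 345 genes were higher and 243 lower at E14.5, and with dorsal replicate 2 as the 1 dorsal library (chosen after seeing the data) 739 were higher and 284 lower. Leaving out each replicate in turn gave 892 to 1067 higher and 480 to 788 lower genes, the 788 without dorsal replicate 2. In the other fits (voom, a pseudocount of 0.5, other filters on low values, median-ratio rescaling, all 15 E14.5 libraries, ventral replicates 3 and 4 averaged, adjusted p below 0.01) 704 to 1362 were higher and 441 to 754 lower. Of 169 named genes called, 122 kept their call in every fit, 36 lost it with the pseudocount of 5 and 22 with dorsal replicate 2 alone. Of these 22, all kept their direction, 16 kept at least 80% of their log2 difference and 18 had a larger standard error, in a fit with fewer libraries; for Col3a1 the difference was -0.22. Medians of some lists turned. Without dorsal replicate 2, the endothelial median went from 0.148 to -0.271, the microglial from 0.207 to -0.0291 and the planar polarity median from 0.00552 to -0.0844. With it alone, the medians of radial glia, blood and meninges went from -0.167, -0.546 and -1.70 to 0.0211, 0.0686 and 0.0730. The planar polarity median also turned in 5 other fits, staying within 0.0612 of 0, the trophic factor median without ventral replicate 3, and those of forebrain position and choroid plexus with other filters. The count of 3 genes whose difference changed from E13.5 to E14.5 ranged from 0 to 5 when each replicate was left out. It was 0 without dorsal replicate 3 at E14.5, without ventral or dorsal replicate 5 or dorsal replicate 4 at E13.5, 1 without ventral replicate 4 or dorsal replicate 6 at E13.5, and 5 without ventral replicate 6 at E13.5. The cause was not tested.

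With the replicate number as a block, 1016 genes were higher and 618 lower at E14.5, and 0 genes changed their difference between stages. The deviations of same-numbered libraries correlated at 0.15, 0.0336 and 0.0502, and those of differently numbered libraries at -0.131 to 0.0752. So few values cannot decide whether the numbers pair the libraries. Ventral replicate 3 correlated best with dorsal replicate 4 (0.0752). At the depth of these libraries, where 3 reads are 1.01 to 2.41 RPM in the ventral and 1.07 to 1.57 RPM in the dorsal group, small differences of genes near 1 RPKM were not resolved.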
